A study of Mus musculus with 8 samples.

Results

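The aryl hydrocarbon receptor group followed here holds 6 genes: the receptor Ahr, its dimerisation partner Arnt, and the target genes Cyp1b1, Cyp1a1, Tiparp and Aldh3a1. The 6 genes, of 12393 named by a probe set that names 1 gene alone, were read by 12 of the 22626 non-control probe sets of the array. The group was picked because Cyp1b1 is nearly lost in knockout cells, so values of knockout against wild-type cells are given for its members as a description, without a test. Cells were mouse embryonic fibroblasts taken at embryonic day 11 and carried in culture past crisis, either wild type (WT) or Med23-/- (KO), the latter lacking a subunit of the Mediator complex that links transcription factors to RNA polymerase II. All cells were held for 16 h in medium with 0.5% fetal bovine serum (FBS). The starved groups were harvested then, and the serum groups after a further 30 min in 20% FBS. Each of the 4 groups had 2 arrays, numbered as set 1 and set 2 in the labels, and the design asked which serum responses change when MED23 is lost. Nothing in the labels says that the sets came from separate cultures or embryos, so the p-values measure only the spread between these arrays, which may be technical. Each genotype is represented by cells described in the same way with no second line, so genotype and line cannot be told apart.

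The aryl hydrocarbon receptor is a ligand-activated transcription factor of the basic helix-loop-helix PAS family. It waits in the cytoplasm bound to heat-shock proteins, moves to the nucleus when it binds planar aromatic compounds or some tryptophan and microbial metabolites, and pairs there with ARNT. The pair binds a short DNA element with the core GCGTG and raises the transcription of a battery of genes, among them the cytochrome P450 enzymes Cyp1a1 and Cyp1b1, the aldehyde dehydrogenase Aldh3a1 and the mono-ADP-ribosyltransferase Tiparp, which in turn restrains the receptor. Cyp1b1 oxidises polycyclic aromatic compounds, oestradiol and retinoids, and is the CYP1 enzyme usually present in mesenchymal cells and fibroblasts.

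Promoter sequence was found in RefSeq (GRCm38.p6) for 4 of the 6 genes: Cyp1b1, Cyp1a1, Tiparp and Arnt. The 250 bases before the annotated start of 3 of them are printed 5′ to 3′ on the gene's own strand, because these 3 targets of a single receptor took different courses in the arrays. Capitals mark the receptor core, GCGTG, or its complement CACGC. The windows are chr17:79715062-79715311 on the minus strand for Cyp1b1, chr3:65528197-65528446 on the plus strand for Tiparp and chr9:57697363-57697612 on the plus strand for Cyp1a1.
Cyp1b1: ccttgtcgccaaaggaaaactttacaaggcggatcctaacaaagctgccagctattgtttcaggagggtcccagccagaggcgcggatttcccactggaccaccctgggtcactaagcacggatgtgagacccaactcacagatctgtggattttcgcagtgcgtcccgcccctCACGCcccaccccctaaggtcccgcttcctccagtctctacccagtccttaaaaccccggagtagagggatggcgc
Tiparp: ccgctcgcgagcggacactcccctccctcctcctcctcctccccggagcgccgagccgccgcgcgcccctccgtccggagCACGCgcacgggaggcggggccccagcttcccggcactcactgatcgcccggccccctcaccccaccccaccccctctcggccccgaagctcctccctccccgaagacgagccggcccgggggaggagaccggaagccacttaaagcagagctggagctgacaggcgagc
Cyp1a1: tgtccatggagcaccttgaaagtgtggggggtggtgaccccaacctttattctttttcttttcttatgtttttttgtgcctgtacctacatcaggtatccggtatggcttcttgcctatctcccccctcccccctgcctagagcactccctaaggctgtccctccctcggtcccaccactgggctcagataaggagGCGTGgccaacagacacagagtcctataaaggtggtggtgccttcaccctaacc
Both strands were searched. Each of the 4 windows, that of Arnt included, held 1 match to GCGTG. Of all 32851 windows of 250 bases in the same table, 28.2% held at least 1. The longer form TNGCGTG, which contains the core, was in none of the 4 windows and in 4.1% of all. The match ended 72 bases before the start of Cyp1b1, 166 before Tiparp, 50 before Cyp1a1 and 25 before Arnt. Of elements read by factors that respond to growth signals, the CArG box was found once, in the Cyp1a1 window (1.47% of all windows hold one), the cyclic AMP response element TGACGTCA once, in the Arnt window (1.55%), and the AP-1 element TGANTCA in none (6.75%). The CArG match ended 23 bases before the Cyp1a1 start and holds the letters TATAAA. These are matches of letters in a short window and show nothing about binding.

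The arrays were first checked against the targeted gene. Med23 signal was 4901 and 5410 in starved WT cells, 3595 and 3577 in WT cells after serum, 28 and 132.5 in starved KO cells, and 34.61 and 36.91 in KO cells after serum. All 4 KO arrays lay below all 4 WT arrays, by -6.00 on the log2(signal + 16) scale in starved cells and -6.12 after serum. The KO signals were under the 40th percentile of the array, so these sizes depend on the constant added and are given without a test. Replicate arrays correlated at r = 0.976 to 0.984 across probe sets, arrays that differed in serum alone at 0.93 to 0.962, and arrays of different genotype at 0.75 to 0.805. Of 14 fibroblast markers, 11 or 12 passed the 40th percentile of the array in each group, and their summed signal was 202600 to 223800 in starved WT, 203700 to 216600 in WT after serum, 379400 to 465600 in starved KO and 347100 to 369000 in KO cells after serum. Col1a1, Fn1 and Vim were at 41730 or above on every array, Thy1 lay under the 40th percentile on every array, and Pdgfra ran from 13.25 to 129.2 on the WT arrays and from 6040 to 15780 on the KO arrays. Fbln2 and Dcn ran the other way, at 4248 to 5921 on WT against 55.34 to 437.5 on KO arrays and at 4807 to 8105 against 2365 to 3500. Of 13 tested markers 10 were higher and 2 lower in starved KO cells and 8 higher and 2 lower after serum. Over all tested probe sets, 22.8% were called higher and 24.8% lower when starved, and 22.7% and 27.5% after serum. Pdgfra and Lum lay under the 40th percentile in WT cells and Fbln2 in KO cells, so their differences are not read as tests. Col1a2 separated the WT sets, at 581.4 and 742.9 on the 2 arrays of set 1 and 8871 and 9443 on those of set 2. The 6 neural and neural crest markers summed to 4955 to 5336, 7234 to 8030, 1419 to 1514 and 1504 to 1659 in the same group order. Nes made up most of it in WT cells, at 2876 to 6134, while Sox10 (721.3 to 787.9) was above Nes (445.4 to 530.2) on the KO arrays. Epithelial (8 genes), endothelial (6), blood and macrophage (7) and hepatocyte (5) markers summed to 3896 or less on every array with none at 0, and the muscle list (7 genes) ran from 78140 to 94280 in WT and from 111200 to 128800 in KO cells. Within that low range the epithelial sum was 2215 to 2379 in starved WT and 2331 to 2802 in WT cells after serum. It was 1977 to 2115 in starved KO and 1479 to 2017 in KO cells after serum. The fibroblast, muscle, neural and epithelial sums moved with genotype, and their part in the genotype differences below was not tested. In bulk RNA of this kind, fewer cells of a type and less RNA per cell cannot be told apart.

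Cyp1b1 was read by 3 probe sets. Probe set 1416612_at gave signals of 29900 and 27570 in starved WT cells, 15080 and 12850 in WT cells after serum, 170.5 and 119.2 in starved KO cells, and 54.75 and 134.5 in KO cells after serum. Its lowest WT array was thus far above its highest KO array, and the KO signals lay under the 40th percentile of each array, which stood between 412.6 and 497.4. The group means were 28740 ± 1650, 13970 ± 1570, 144.8 ± 36.3 and 94.64 ± 56.4 (SD, n = 2 each), in the order just given. The 2 WT groups were apart from each other and from both KO groups, and the 2 KO groups overlapped.

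On the log2(signal + 16) scale, the KO minus WT difference was -7.50 when starved and -7.08 after serum. Because the KO signals are close to the floor, the size of this difference depends on the added constant, and in starved cells it was -7.64 with 1 added and -7.12 with 64 added. Probe set 1416613_at followed the same order at 9612 and 5973, 3132 and 2797, 102.1 and 13.77, and 15.43 and 60.57. It stood at -7.00 in starved cells and -5.92 after serum, the latter moving to -4.93 with 64 added. Probe set 1432081_at did not pass the filter on low signal and was not tested. It ran from 228.4 to 337 on the WT arrays and from 23.4 to 162.4 on the KO arrays, again with no overlap. The 3 probe sets measure RNA of the same gene and are not separate evidence.

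**Figure D1:**
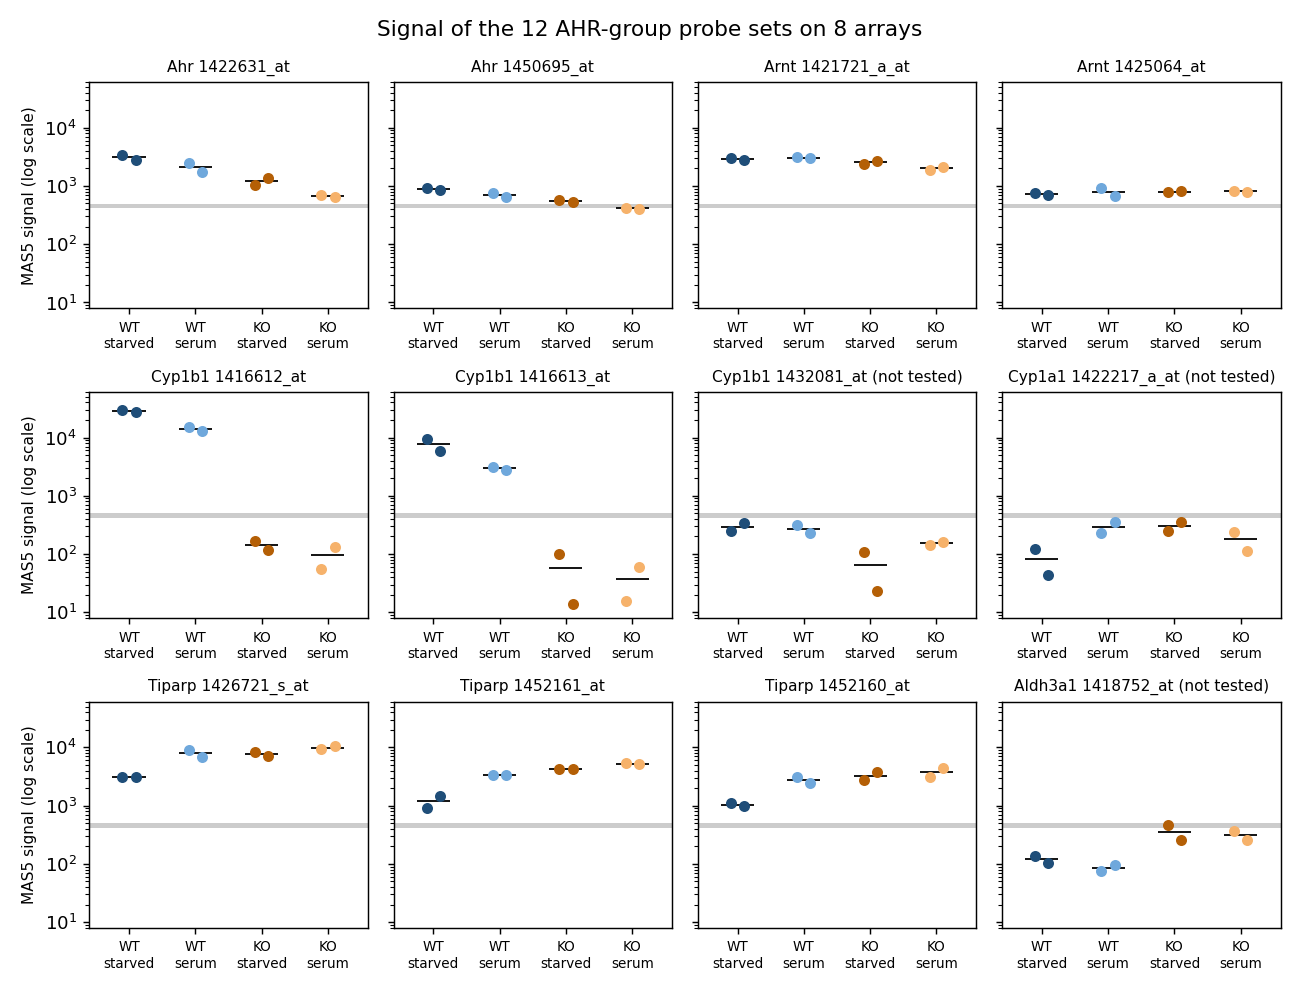
MAS5 signal (log scale, vertical axis) of the 12 probe sets on the 8 arrays, in columns for starved and serum-treated WT and KO cells; points are arrays, short lines are means of 2 arrays, and the grey band spans the arrays' 40th percentiles, 412.6 to 497.4. Cyp1b1 probe set 1416612_at sits at 12850 or above on the WT arrays and at 170.5 or below on the KO arrays, while Tiparp is lowest in starved WT cells.

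Cyp1a1 differed from Cyp1b1 in that its signal was low on every array. Cyp1a1, the classical enzyme induced by dioxin-like ligands, gave 119.9 and 43.85 in starved WT cells, 231.7 and 353 in WT cells after serum, 249.1 and 355.9 in starved KO cells, and 242.4 and 114.5 in KO cells after serum. All 8 values were under the 40th percentile of their array, so Cyp1a1 was not tested, and WT and KO arrays overlapped. Aldh3a1, which oxidises aromatic and lipid aldehydes, was also under the filter on every array. Its signals were 137.4 and 103.7, 75.73 and 93.83, 459.9 and 256, and 365.2 and 261.6 in the same group order, so that every KO array was above every WT array within this low range.

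The receptor itself was lower in KO cells. Ahr probe set 1422631_at gave 3448 and 2770 in starved WT cells, 2448 and 1752 in WT cells after serum, 1041 and 1370 in starved KO cells, and 709.4 and 636.1 in KO cells after serum. The 4 groups followed each other downwards in that order without overlap between any pair of them. The KO minus WT difference was -1.36 in starved cells (2.57-fold) and -1.60 after serum (3.03-fold). The second probe set, 1450695_at, ran from 907 and 854.9 through 764.1 and 635.8 and then 582.3 and 530.3 to 412.2 and 408.2. It kept the same order of groups, with smaller differences of -0.65 and -0.74.

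Arnt, the partner that the receptor shares with the hypoxia-inducible factors, differed less. Probe set 1421721_a_at gave 2978 and 2830, 3118 and 2970, 2417 and 2689, and 1896 and 2152, with KO lower by -0.19 when starved and by -0.59 after serum. Its starved and serum-treated WT groups overlapped. Probe set 1425064_at gave 763.4 and 700.2, 917.4 and 680.6, 791.5 and 808.6, and 813.6 and 799.3, with KO minus WT differences of 0.13 and 0.03. The 2 Arnt probe sets therefore disagree on the order of the genotypes.

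Of the tested members, Tiparp had the largest positive differences of KO against WT cells. Probe set 1426721_s_at, whose probes can match more than 1 transcript, gave 3095 and 3057 in starved WT cells, 9143 and 6757 in WT cells after serum, 8251 and 6993 in starved KO cells, and 9273 and 10410 in KO cells after serum. Starved WT cells were the low group, and the starved KO arrays fell within the range of the serum-treated WT arrays. Probe set 1452161_at gave 893.2 and 1459, 3376 and 3289, 4246 and 4270, and 5282 and 5077, with no overlap between any 2 groups. Probe set 1452160_at gave 1088 and 966.2, 3107 and 2460, 2735 and 3732, and 3147 and 4407, again with starved WT cells below all others and the starved KO arrays overlapping both serum groups. KO minus WT differences in starved cells were 1.30, 1.88 and 1.63 for the 3 probe sets, and after serum 0.32, 0.63 and 0.43. Over all members, every KO array was below every WT array for 6 of the 12 probe sets, of which 5 were among the 9 past the filter, against 23.5% of all tested probe sets. Every KO array was above every WT array for 2 of the 12, Tiparp 1452161_at and Aldh3a1, against 20.6%, and 4 overlapped. Since the group was chosen on this contrast, nothing is read from these counts.

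In WT cells, Tiparp was the only member gene that passed the test after 30 min of serum. Its 3 probe sets rose by 1.35 ± 0.155 (log2 difference ± SE), 1.53 ± 0.195 and 1.42 ± 0.209 for 1426721_s_at, 1452161_at and 1452160_at, which is 2.55-fold, 2.89-fold and 2.67-fold (limma adjusted p = 0.000691, 0.00141 and 0.0035). Every serum array was above every starved array for each of them, as for 20.5% of all tested probe sets. The call held without each of the 8 arrays in turn and under the 9 other settings. These were 3 of the 9 tested member probe sets, all of 1 gene, against 4.14% of all 14947 tested probe sets called in either direction and 2.44% called higher.

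The remaining members did not pass the test in WT cells. Cyp1b1 1416612_at was lower on both serum arrays, by -1.04 ± 0.303 (2.06-fold, 95% confidence interval -1.72 to -0.37, adjusted p = 0.0938), and 1416613_at by -1.35 ± 0.594 (interval -2.67 to -0.03, adjusted p = 0.263). The first reached adjusted p = 0.0298 with 64 added to the signal, 0.00257 when only the WT arrays entered the fit, and 0.0158 or 0.0167 without 1 of the serum-treated KO arrays, and the second 0.0138 with only the WT arrays. The KO arrays, on which Cyp1b1 is near the floor and varies more on the log scale, contribute to the shared estimate of spread in the fit over all 8 arrays. Ahr was lower on both serum arrays by -0.57 (interval -1.04 to -0.11, adjusted p = 0.181) and -0.33 (interval -0.80 to 0.14, adjusted p = 0.462) by its 2 probe sets, and Arnt differed by 0.07 and 0.11 with overlapping arrays. Non-overlapping arrays in the lower direction, as for the tested Cyp1b1 and Ahr probe sets here, were found for 29.8% of all tested probe sets. The untested Cyp1b1 probe set 1432081_at overlapped, at 246.7 and 337 in starved cells and 313.5 and 228.4 after serum. Of the untested members, Cyp1a1 was higher on both serum arrays and Aldh3a1 lower on both, within the low range given above.

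In KO cells, 1 of the 2 Ahr probe sets fell with serum and Tiparp did not pass the test. Ahr 1422631_at fell by 0.82 on the log2 scale (SE 0.211, 1.76-fold, adjusted p = 0.0206), the only member called of 9, against 23.1% of all tested probe sets and 13.8% called lower. The call was lost under quantile normalization (adjusted p = 0.0513) and without the second starved KO array (0.111), the first serum KO array (0.0677) or the second serum KO array (0.106). The second Ahr probe set stood at -0.42 (adjusted p = 0.175). Tiparp differences were 0.37 (interval 0.03 to 0.72, adjusted p = 0.112), 0.28 (-0.15 to 0.72, 0.329) and 0.22 (-0.24 to 0.68, 0.482). The first passed with each array centred on its median, at 0.53 and adjusted p = 0.0414. The median of all tested probe sets was -0.13 in this comparison. Both serum arrays were above both starved arrays for Tiparp 1426721_s_at and 1452161_at, as for 21.4% of all tested probe sets, and below them for both Ahr probe sets and Arnt 1421721_a_at, as for 41.1%. Arnt stood at -0.33 and 0.01, neither called. The Cyp1b1 probe sets passed the filter through the WT arrays, and with all their KO signals under the 40th percentile nothing is read from their serum difference in KO cells.

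The difference between the genotypes in serum response was tested as an interaction term. For Tiparp, the response in KO minus that in WT cells was -0.98 ± 0.219 for 1426721_s_at (adjusted p = 0.0473), -1.25 ± 0.276 for 1452161_at (adjusted p = 0.0449) and -1.20 ± 0.295 for 1452160_at (adjusted p = 0.0659). So 2 of 9 member probe sets were called, against 2.69% of all tested, with 1.61% called higher and 1.08% lower. Both calls lie close to the threshold. With each array centred on its median they moved to 0.0702 and 0.0683, with no filter to 0.0794 and 0.0800, and without the mean-variance trend to 0.116 and 0.104, and 1452161_at moved to 0.0575 under quantile normalization. Leaving out 1 array at a time kept the call for 1426721_s_at only without the second serum WT array (0.0326) and for 1452161_at only without the second starved WT array (0.00771), with adjusted p reaching 0.182 and 0.14 elsewhere. The difference was negative for all 3 probe sets in every one of those settings, between -1.60 and -0.76. The same 2 starved WT arrays enter the WT serum response, the interaction and the starved genotype comparison of Tiparp, so these 3 are not independent of each other. For Ahr the interaction was -0.24 and -0.09 and for Arnt -0.40 and -0.10, with adjusted p between 0.288 and 0.902. For Cyp1b1 nothing is read from the interaction, which rests on the same low KO signals.

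**Figure D2:**
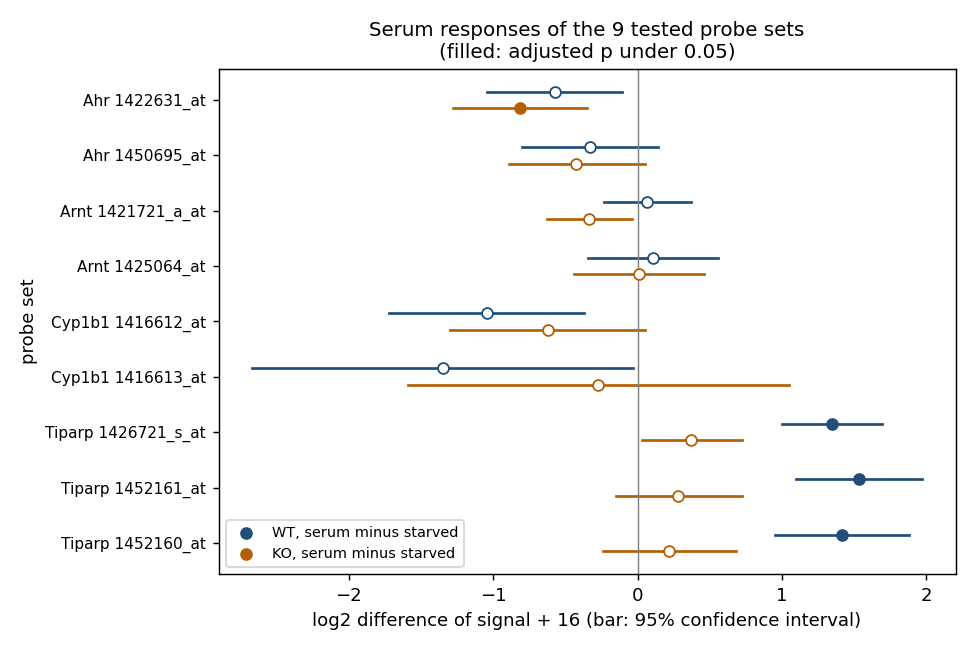
Log2 difference of signal + 16 between serum and starved cells (horizontal axis) for the 9 tested member probe sets, with 95% confidence intervals; blue is WT, orange is KO, and filled points have adjusted p under 0.05. The 3 Tiparp probe sets are filled in WT cells at 1.35 to 1.53 and open in KO cells at 0.22 to 0.37, and Ahr 1422631_at is filled in KO cells at -0.82. The Cyp1b1 points in KO cells are differences between signals under the 40th percentile.

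The wider pathway was read from 9 lists of related genes, where a gene with several probe sets was represented by the one brightest on average. Of the list entries 114 were named on the array and 25 were not, and 80 passed the filter. KO cells were compared with WT cells in these lists against a background of 47.6% of all tested probe sets called when starved (22.8% higher, 24.8% lower) and 50.2% after serum (22.7% higher, 27.5% lower). Over the 80 genes, 28 were higher and 18 lower in starved KO cells, and 25 were higher and 20 lower after serum, the latter 13 without the first serum KO array. That is 35% higher and 22.5% lower, and then 31.2% higher and 25% lower, for genes each read by their brightest probe set. In each genotype comparison, 12 of the 80 had 1 or both of the groups compared wholly under the 40th percentile, and 5 of these 12 were among the genes called higher and 4 among those called lower. Genes of this kind passed the filter through the group where they were high, so their signals are given below without a test, and the size of any difference depends on the constant added. The lists were assembled with earlier results of these data known, and nothing particular to them is drawn from these shares.

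Of 6 tested genes listed with the receptor's complex and repressor, 1 was lower in starved KO cells and 3 after serum, and none was higher. Both counts moved when single arrays were left out. The list also holds the exportin Xpo1, so not every gene in it is part of the cytosolic complex. Src, a tyrosine kinase found in the cytosolic receptor complex, was lower at -1.23 in starved cells (adjusted p = 0.000252) and -2.17 after serum (adjusted p = 5.79e-06). The exportin Xpo1 (-0.84, adjusted p = 0.00684) and the co-chaperone Cdc37 (-0.33, adjusted p = 0.0194) were lower after serum. Xpo1 lost the call without the first serum WT or the first serum KO array, and Cdc37 under 6 of 17 alternatives. Hsp90aa1, the heat-shock protein that holds the receptor, stood at -0.22 when starved (adjusted p = 0.252) by its brightest probe set, and its other 2 probe sets were lower at -0.61 and -0.42 (adjusted p = 0.00173 and 0.00821). The receptor repressor Ahrr was under the filter, at 27.3 or less on every array.

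Other target genes of the receptor were largely below the range that could be tested. Of 12 on the array, only Fos, Ptgs2, Il6 and Nfe2l2 passed the filter, and the detoxification genes Nqo1, Cyp1a2, Gsta2 and Xdh did not. Nqo1, a quinone reductase, ran from 40.76 to 160.7 over the 8 arrays. Ptgs2, the inducible cyclooxygenase, was lower in starved KO cells at -2.65 (adjusted p = 1.48e-06) and after serum at -0.74 (adjusted p = 0.00507, and 0.0554 without the first serum KO array). The second Ptgs2 probe set gave -3.23 and -0.47 (adjusted p = 6.52e-07 and 0.0566). The immediate early gene Fos was higher at 0.94 and 0.80, and the cytokine Il6 was at 180.4 or less on the WT and starved KO arrays and at 1371 and 1522 in KO cells after serum.

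Retinoids are substrates of Cyp1b1, and the retinoid carrier Rbp4 had no overlap between WT and KO arrays. Of 10 tested genes of retinoid and oestrogen handling, 3 were higher and 3 lower in starved KO cells (1 higher without the first starved WT array), and 2 were higher and 4 lower after serum (1 higher without any 1 of the 4 serum arrays). Rbp4, the retinol-binding protein, gave 9657 and 9962 in starved WT cells, 9726 and 11220 in WT cells after serum, 273.8 and 245.1 in starved KO cells, and 208.9 and 292 in KO cells after serum. The KO signals were under the 40th percentile. Aldh1a1, a retinaldehyde dehydrogenase, ran from 688 to 852.8 on WT arrays and from 47.25 to 64.11, again under that percentile, on KO arrays. Rbp4 and Aldh1a1 are among the lower genes counted. Sult1a1, under that percentile in WT cells, is among those higher when starved. The calls of these genes are not read as tests. Rdh10, which makes retinaldehyde from retinol, was lower at -1.44 and -1.69 (adjusted p = 1.43e-05 and 5.29e-06). The retinoic acid receptor Rarg was higher in starved KO cells at 0.76 (adjusted p = 0.00322).

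Several other cytochrome P450 genes also differed by genotype, in both directions. Of 9 tested, 1 was higher and 3 lower in starved KO cells, and 2 higher and 3 lower after serum. Cyp7b1, an oxysterol hydroxylase, ran from 990.4 to 1616 on WT arrays and from 70.87 to 157.3 on KO arrays, and Cyp2j6 from 339.1 to 563.5 and from 25.65 to 62.48. Cyp46a1, which hydroxylates cholesterol in neurons, ran the other way, from 365.7 to 452.1 on WT arrays and from 867.8 to 1724 on KO arrays. The KO signals of Cyp7b1 and Cyp2j6 and the WT signals of Cyp46a1 were under the percentile used for the filter. Cyp7b1 and Cyp2j6 are among the lower genes counted and Cyp46a1 is among the higher, and their calls are not read as tests. Cyp39a1, another oxysterol hydroxylase, was lower at -1.05 and -0.92. Cyp51, of cholesterol synthesis, was higher after serum at 1.58 (adjusted p = 0.000137) and stood at 0.00 when starved. Among the genes that pass electrons to these enzymes or make their haem, 4 of 12 were higher and 3 lower in starved KO cells (1 lower without the first starved WT array) and 5 higher and 2 lower after serum (3 higher without the first serum array of either genotype, and 1 lower without the first serum WT or the second serum KO array). They included Fech, the last enzyme of haem synthesis, at 0.89 and 0.94 and the cytochrome Cyb5a at -0.91 and -0.53.

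Of 9 tested genes of the bHLH-PAS family, to which the receptor and its partner belong, 5 were higher and 1 lower in starved KO cells (0 lower without the first starved WT array), and 3 were higher and 1 lower after serum. Epas1, a hypoxia-inducible factor subunit that also pairs with ARNT, gave 94.92 and 197.3 in starved WT cells, 45.36 and 127 in WT cells after serum, 1127 and 1570 in starved KO cells, and 1139 and 1227 in KO cells after serum. Every KO array was above every WT array, and the WT signals were under the 40th percentile. Hif1a was higher at 0.58 and 0.82 (adjusted p = 0.0027 and 0.000324). Npas3 ran from 212.5 to 372.7 on WT arrays, under that percentile, and from 625.9 to 1000 on KO arrays. Epas1 and Npas3 are among the higher genes counted, and their calls are not read as tests.

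Among 10 tested cofactors of the receptor, 4 were higher and 4 lower in starved KO cells, and 4 higher and 2 lower after serum (1 lower without any 1 of the 4 serum arrays). The chromatin remodeller Smarca4 was lower at -0.77 and -1.11 (adjusted p = 0.000107 and 9.04e-06), and the coactivator Ncoa1 was higher at 1.05 and 1.38 (adjusted p = 0.00022 and 3.57e-05). Sp1 was higher at 0.98 and 0.77, but its second probe set gave 0.41 (adjusted p = 0.0967) and -0.52 (adjusted p = 0.0422). Other aldehyde dehydrogenases were higher in 5 and lower in 1 of 10 starved, and higher in 4 and lower in 1 after serum, led by Aldh7a1 (1.45 and 1.25) and Aldh6a1 (1.39 and 1.91). Aldh3b1, with WT signals under the percentile used for the filter, is among the higher genes counted, and its calls are not read as tests. Other members of the PARP family of Tiparp were higher in 5 and lower in 1 of 10 when starved, with 1 to 3 higher without any 1 of the 8 arrays and 0 lower without the first starved WT or the second starved KO array. After serum 3 were higher and 3 lower, with 1 higher without the first serum WT or the second serum KO array and 0 or 1 lower without the first serum WT or either serum KO array. The PARP differences named by the smallest p were small, between -0.74 for Parp6 and 0.76 for Parp8 after serum.

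**Figure D3:**
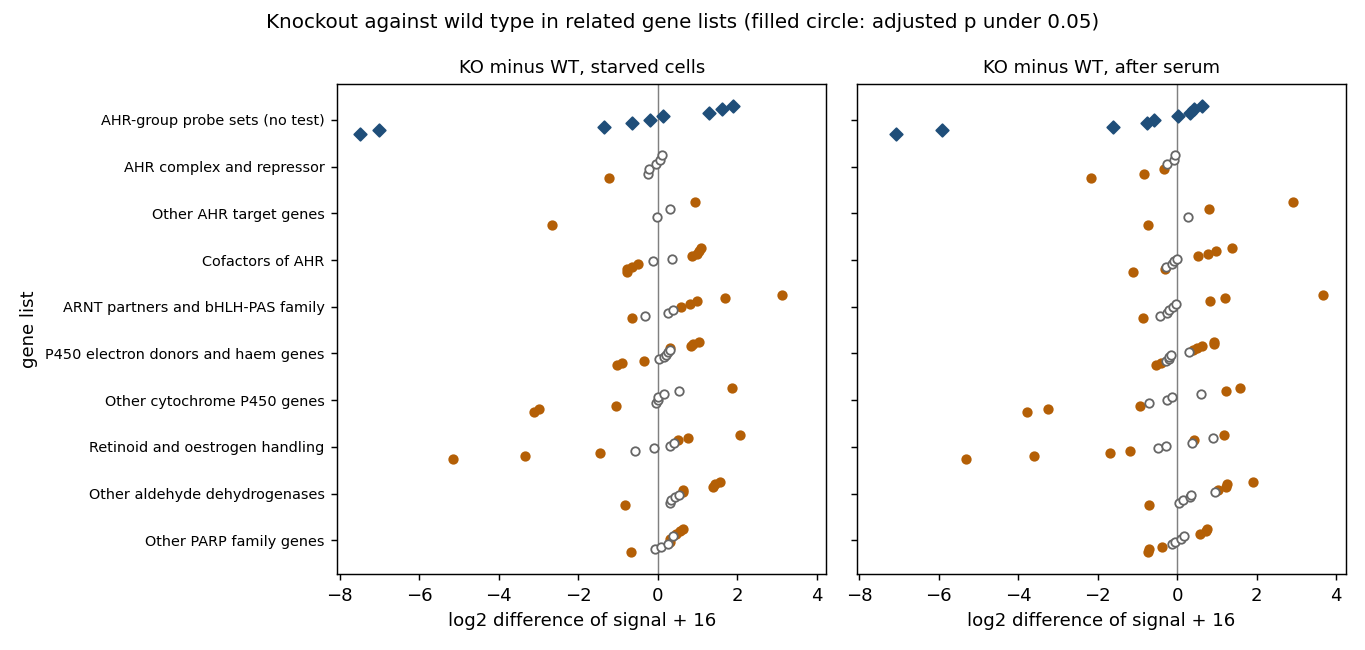
Log2 difference of signal + 16, KO minus WT (horizontal axis), in starved cells (left) and after serum (right) for the 9 tested probe sets of the group (blue diamonds, no test) and the tested genes of 9 related lists (circles, filled where adjusted p is under 0.05). Cyp1b1 lies at -7.50 and -7.00 in starved cells, and the lowest list gene is Rbp4 at -5.16, both with KO signals under the 40th percentile.

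With serum, few genes of these lists responded in WT cells. Of the 80, 4 rose and 0 passed the test downwards by limma (2 rose without the second starved WT array, and 1 fell without the first starved or the second serum WT array), against 2.44% and 1.7% of all tested. They were Fos (4.97, adjusted p = 1.48e-07), Ptgs2 (2.06, adjusted p = 6.61e-05), the haem oxygenase Hmox1 (1.64, adjusted p = 0.014) and Hsd17b7, an enzyme of cholesterol and oestrogen synthesis (0.61, adjusted p = 0.0318). The Hmox1 call was lost without the mean-variance trend and without the second starved WT array, with adjusted p up to 0.109. That of Hsd17b7 was lost under 8 of 17 alternatives, and its second probe set gave 0.08 (adjusted p = 0.85). In KO cells 10 rose and 15 fell, against 9.33% and 13.8%. The count that fell was 5 with arrays centred on their median and 12 under quantile normalization, and 6 to 8 without the second starved or either serum KO array. Ptgs2 rose by 3.97 (adjusted p = 2.42e-07), and Cyp51 by 1.90 (adjusted p = 0.000157), while Parp6 was lower at -1.27 (adjusted p = 0.00255). Il6, low in starved KO cells, is counted among the 10.

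The response differed between genotypes for 3 of the 80 list genes, 2 higher and 1 lower, against 1.61% and 1.08% of all tested. Ptgs2 rose more in KO cells, by an interaction of 1.91 (adjusted p = 0.00382), from 1378 and 1840 to 22760 and 27900, against 8820 and 11580 to 41110 and 43050 in WT cells. Cyp51 rose more in KO cells at 1.58 (adjusted p = 0.0206). Rara, a retinoic acid receptor, had an interaction of -1.59 (adjusted p = 0.0195), falling in KO cells from 1944 and 1456 to 802.3 and 838.9 and standing at 1490 and 1078, then 1848 and 1915, in WT cells. The Cyp51 and Rara calls were each lost without the second starved WT array or any 1 of the 4 serum arrays, that of Cyp51 also without the mean-variance trend, and that of Ptgs2 held in all 16 alternatives.

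The genes whose profiles over the 8 arrays were most like those of Cyp1b1, Ahr and Tiparp were found by the root mean square difference of log2 values, each profile centred on its own mean. For Cyp1b1 the closest was Cdkn2b, an inhibitor of cyclin-dependent kinases, at 0.40. Its mean signals were 12320 in starved WT, 4204 in WT after serum, 43.93 in starved KO and 37.43 in KO cells after serum, so it shared the lower WT level after serum. Parm1 (0.55), the annexin Anxa8 (0.68), the extracellular superoxide dismutase Sod3 (0.71) and Fgf13 (0.74) followed, and each had a mean of 3212 or more in both WT groups and at 137.1 or less in both KO groups. For Ahr the closest were Dapp1 (0.15), the transcription factor Sox4 (0.16), Patz1 (0.19), Ampd3 (0.21) and Bid (0.21). Sox4 had the same falling order of groups as Ahr, with means of 10360, 6750, 4033 and 2500. The KO means of the genes most like Cyp1b1 were under 412.6, the lowest 40th percentile of any array. So were those of Dapp1 (291.1 starved and 177.5 after serum) and Ampd3 (281.2 and 129.6), and that of Bid after serum (352). The distances of these genes therefore depend on the constant added.

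For Tiparp the closest was Socs2, a suppressor of cytokine signalling, at 0.15, with means of 432.8, 1224, 1167 and 1827. The filamin Flnc (0.21), Fhl2 (0.23), the RNA-binding protein gene Zfp36l2 (0.25) and Polg (0.26) came next. All 5 were lowest in starved WT cells and highest in KO cells after serum. The starved WT means of Socs2 (432.8) and Polg (286.8) were under the 40th percentiles of those arrays, 483.6 and 463.2. These likenesses are over 8 arrays that share 4 groups, and a profile set mainly by genotype is common in these data.

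**Figure D4:**
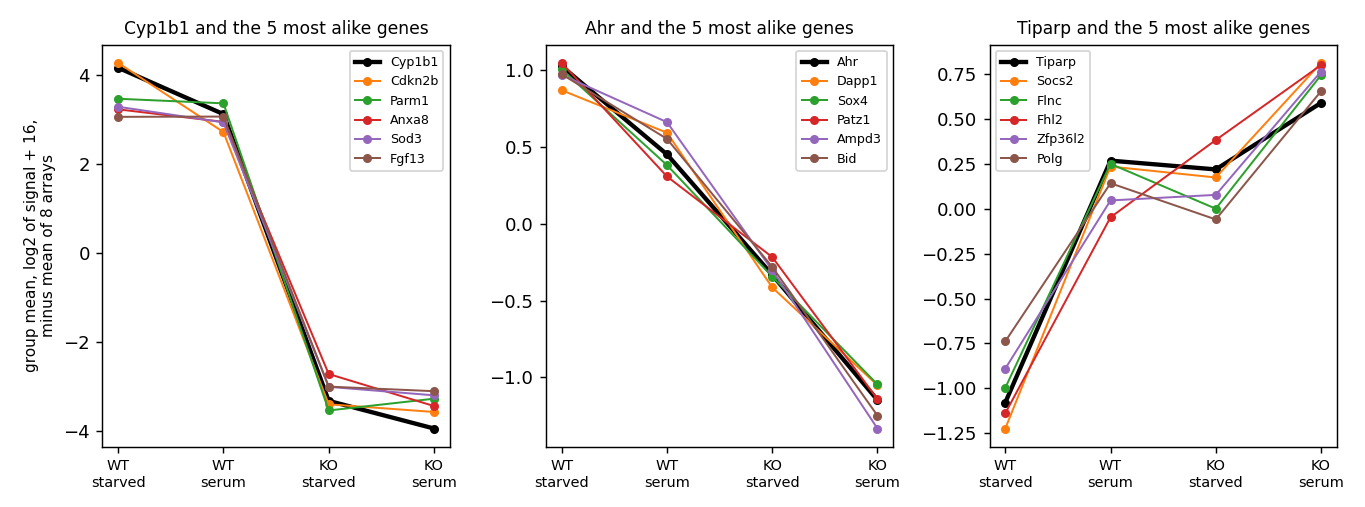
Group means of log2(signal + 16) minus each gene's mean over the 8 arrays (vertical axis) in the 4 groups (horizontal axis) for Cyp1b1, Ahr and Tiparp (black) and the 5 genes with the smallest root mean square difference from each (colours; n = 2 arrays a group). Cdkn2b, at 0.40 from Cyp1b1, follows its drop between WT groups, and Socs2, at 0.15 from Tiparp, its low starved WT level.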

How the data were processed

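The authors deposited 1 table of microarray intensity values, MAS5 signals per the submitters' processing notes, for 22690 probe sets on 8 arrays of biotin-labelled total RNA, 2 in each of 4 groups. MAS5 scales every array to a common level, and the trimmed mean of all signals was 2500.6 to 2500.8 on each. Medians ran from 765.6 to 924.4. Scanner files, detection calls and the background correction behind the signals were not used here, and the number of arrays limits the precision.

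After 64 control probe sets were removed, 16 was added to each signal, log2 was taken, and probe sets at or above the 40th percentile of their array on at least 2 arrays were kept. The 14947 left were fitted with limma 3.58.1 in R 4.3.3 (4 group means, moderated variances with a mean-variance trend, 4 residual and 6.07 prior degrees of freedom, two-sided, Benjamini-Hochberg adjustment over all tested probe sets, calls at adjusted p under 0.05). The code was tested on simulated data. An exact permutation test of 2 arrays against 2 cannot go below p = 0.333 and was not used. Figures were drawn with matplotlib 3.10.9.

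Probe sets were named from the platform annotation, keeping those with 1 gene symbol. All probe sets of the 6 genes are reported. In each related list up to 4 genes with the smallest p in a comparison could be named, and other list genes or probe sets are named only to show what could not be tested or where probe sets of a gene differ. The 5 genes most like Cyp1b1, Ahr and Tiparp were chosen by root mean square difference over 8 arrays. The members and all lists were chosen with earlier results of these data known. The alternatives were 1 or 64 added to the signal, quantile normalization, median centring, no filter or the 60th percentile, no mean-variance trend, the set number as a replicate block, only the arrays compared, and leaving out each array.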

Additional observations from a re-analysis of the deposited data

Results flagged for a closer look

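The serum response of Tiparp differed between the genotypes by the test of the difference itself. For probe set 1426721_s_at the response in KO minus that in WT cells was -0.98 on the log2(signal + 16) scale (limma adjusted p = 0.0473), and for 1452161_at it was -1.25 (adjusted p = 0.0449). The third probe set, 1452160_at, stood at -1.20 (adjusted p = 0.0659). Each of the 2 calls was kept in 1 of the 8 fits that left out 1 array and lost under median centring, with no filter and with no mean-variance trend, and that of 1452161_at also under quantile normalization. The interaction was called for 2 of 9 member probe sets, against 2.69% of all tested. For the 2 called probe sets every serum array was above every starved array in both genotypes. Of all tested probe sets, 20.5% had this order in WT cells and 21.4% in KO cells.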

How the results depend on the processing

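For single member probe sets, 695 of the values recomputed under the alternatives were counted as unchanged, and 4 moved, 8 became called, 25 lost the call and 14 changed sign. In the serum and interaction comparisons, unchanged meant the same direction and the same side of the threshold. In the genotype comparisons it meant a shift smaller than the largest SD of log2 signal in a compared group. There, larger shifts were counted as moved, and a change of sign was counted only for a difference with adjusted p under 0.05. Member probe sets called after serum were 5 with only the arrays compared in WT cells (3 to 4 without 1 array), and 0 under quantile normalization and 2 under median centring in KO cells (0 to 1 without 1 array). For the interaction they were 1 under quantile normalization, 0 under median centring, with no filter and with no mean-variance trend, and 0 to 1 without 1 array. Over all probe sets, without 1 array, the called count was 312 to 705 for serum in WT cells (619 with all arrays), 1581 to 3215 for serum in KO cells (3455), 127 to 495 for the interaction (402, or 250 with no filter and 214 with no trend), 5514 to 6932 for starved KO against WT (7111) and 5457 to 7911 after serum (7506). Cyp1b1 1416612_at in starved cells was -7.12 with 64 added and -7.73 to -7.27 without 1 array, and after serum -7.62 to -6.53.

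The counted changes of sign were in differences that were not called. The interaction became 0.01 and 0.03 for Ahr 1450695_at and 0.03 and 0.02 for Arnt 1425064_at under quantile normalization and median centring. Without 1 array it ran from -0.22 to 0.04 for that Ahr probe set, from -0.31 to 0.11 for that Arnt probe set and from -0.12 to 0.97 for Cyp1b1 1416612_at, whose KO signals are near the floor. Serum in KO cells ran from -1.27 to 0.72 for Cyp1b1 1416613_at (0.37 without serum array 1), from -0.02 to 0.46 for Tiparp 1452160_at, and from 0 to 0.03 for Arnt 1425064_at. Serum in WT cells ran from -0.1 to 0.32 for Arnt 1425064_at. The cause was not tested. Deviations of equally numbered sets correlated at 0.21 between the WT groups, at 0.1 between the KO groups and at -0.03 to 0.01 across genotypes. The labels do not say what a set number marks, and the numbers were not taken as pairs. With the set number as a replicate block, 634, 3494 and 399 probe sets were called for serum in WT cells, in KO cells and the interaction, and no member call changed. That block fitted 1 shift for both genotypes, so it cannot settle a pairing within 1 genotype, such as the WT sets that Col1a2 separated. Low signal limits Cyp1a1 and Aldh3a1 on all arrays. In KO cells it also limits Cyp1b1, Rbp4, Aldh1a1, Cyp7b1, Cyp2j6, Fbln2, Med23, Dapp1, Ampd3 and the genes named as most like Cyp1b1. In WT cells it limits Epas1, Npas3, Cyp46a1, Aldh3b1, Sult1a1, Pdgfra and Lum. The sizes of differences of these genes depend on the constant added.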
